A study of Homo sapiens with 16 samples.

Results

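The regions described here were bound by p65, a subunit of NFκB, in HT29 mock cells after TNFα and in none of the other 3 groups of the series. There were 390 of them, out of 6238 regions bound in at least 1 group and out of 2473 bound in HT29 mock. They were selected on the measured signal. In bins of 200 bp on chromosomes 1 to 22 and X, a ChIP library passed where its mean signal was at least 2, at least 4 times that of the input of its own group (taken as at least 0.35) and at least 4 times that of the surrounding 10 kb. A bin was bound in a group when at least 2 of its 3 ChIP libraries passed, and bound bins within 200 bp were joined over the groups. Of the 390 regions, 351 were 200 bp long and 39 were 400 bp long, and the values below belong to the highest bin of each region. The absence of the other groups is therefore a limit that was not reached, and not a signal of 0.

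p65 is encoded by RELA, and NFκB is a transcription factor of paired subunits. In resting cells NFκB dimers are held in the cytoplasm by IκB proteins. After TNFα binds its receptor the IκB proteins are degraded, the dimers enter the nucleus and they bind short DNA elements called κB sites. Among the genes switched on are the inhibitors that end the signal, and the same pathway drives inflammatory and survival genes in the colon epithelium. ERβ, encoded by ESR2, is a nuclear receptor for estrogen whose level is low in many colon cancers.

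HT29 and SW480 are human colon adenocarcinoma lines. Each carried either a mock construct or a stably introduced ERβ, and the introduced receptor was not given its ligand estradiol. p65 was crosslinked to DNA with DSG and formaldehyde and captured with 1 mouse monoclonal antibody. The 4 groups, HT29 mock, HT29 ERβ, SW480 mock and SW480 ERβ, had 3 p65 ChIP-Seq libraries and 1 input library each, and all cells had been treated with TNFα at 30 ng/ml for 30 min, so no untreated state was analysed. The sources used here do not say whether each stable line is 1 clone or a pool. The medium was free of phenol red, with stripped serum, from the day before, and the ERβ inputs came from another set of libraries than the ChIP samples.

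The signal is tag density scaled by the authors for each library, to 10000000 tags as read from the sums of the tracks, so the tracks hold no counts and the number of tags behind a value could not be read from them. In the 572 regions bound in all 4 groups, the median signal ranged from 3.72 to 10.8 over the 12 ChIP libraries. Replicate 1 stood above the other replicates in both HT29 groups, with 9.19 against 4.55 and 4.94 in HT29 mock and 7.72 against 3.90 and 3.72 in HT29 ERβ. The ESR2 exons checked the ERβ label of the ChIP libraries, but not that of the SW480 inputs, where the ratio below was 1.28 in SW480 ERβ and 1.24 in SW480 mock. Signal in bins over exons, divided by that in the other bins of the gene, was 1.55 to 2.30 in the HT29 ERβ ChIP libraries against 0.967 to 1.08 in HT29 mock.

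The sequences of 9 of the regions are shown because they are among the named ones highest in HT29 mock that held a κB or an AP-1 match and could be shown. κB matches and AP-1 matches, the latter spelled TGACTCA or TGAGTCA, stand in capitals. Each line gives the plus strand of the highest bin from GRCh38, 5′ to 3′, and a region is called by the protein-coding gene with the nearest start.
TNIP1, chr5:151083401-151083600: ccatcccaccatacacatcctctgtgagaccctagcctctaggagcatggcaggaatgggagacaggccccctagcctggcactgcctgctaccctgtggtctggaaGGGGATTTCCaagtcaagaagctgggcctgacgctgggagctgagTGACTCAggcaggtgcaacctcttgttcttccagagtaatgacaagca
ABHD2, chr15:89125601-89125800: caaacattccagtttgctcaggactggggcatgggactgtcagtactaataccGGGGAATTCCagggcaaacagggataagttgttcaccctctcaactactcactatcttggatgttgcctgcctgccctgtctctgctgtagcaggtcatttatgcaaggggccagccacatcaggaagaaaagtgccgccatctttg
REPIN1, chr7:150366201-150366400: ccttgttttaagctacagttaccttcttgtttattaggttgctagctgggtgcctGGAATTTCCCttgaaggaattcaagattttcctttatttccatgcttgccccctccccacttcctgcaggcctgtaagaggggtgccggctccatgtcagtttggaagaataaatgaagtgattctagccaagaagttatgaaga
FTH1, chr11:61972801-61973000: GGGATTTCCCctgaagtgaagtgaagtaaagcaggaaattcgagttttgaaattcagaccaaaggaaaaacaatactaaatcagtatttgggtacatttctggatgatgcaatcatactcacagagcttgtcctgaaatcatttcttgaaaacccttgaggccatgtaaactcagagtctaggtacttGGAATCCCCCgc
IFNGR1, chr6:137234001-137234200: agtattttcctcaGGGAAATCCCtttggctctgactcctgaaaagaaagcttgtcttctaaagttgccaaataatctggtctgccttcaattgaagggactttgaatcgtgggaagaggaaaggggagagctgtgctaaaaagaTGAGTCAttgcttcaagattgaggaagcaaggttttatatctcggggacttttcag
ISG20, chr15:88638601-88638800: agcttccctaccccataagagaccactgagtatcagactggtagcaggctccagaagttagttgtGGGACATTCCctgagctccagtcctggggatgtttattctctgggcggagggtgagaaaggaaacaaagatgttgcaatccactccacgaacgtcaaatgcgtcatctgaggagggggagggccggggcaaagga
TBXAS1, chr7:139798201-139798400: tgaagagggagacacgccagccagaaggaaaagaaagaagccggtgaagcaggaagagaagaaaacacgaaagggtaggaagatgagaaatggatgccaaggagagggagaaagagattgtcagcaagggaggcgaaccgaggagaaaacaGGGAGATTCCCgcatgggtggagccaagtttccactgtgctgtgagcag
EGFR, chr7:55079001-55079200: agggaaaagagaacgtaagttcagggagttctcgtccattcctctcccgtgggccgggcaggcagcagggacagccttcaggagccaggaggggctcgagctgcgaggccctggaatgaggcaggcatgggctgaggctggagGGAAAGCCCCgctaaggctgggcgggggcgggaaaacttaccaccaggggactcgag
ADGRA3, chr4:22516401-22516600: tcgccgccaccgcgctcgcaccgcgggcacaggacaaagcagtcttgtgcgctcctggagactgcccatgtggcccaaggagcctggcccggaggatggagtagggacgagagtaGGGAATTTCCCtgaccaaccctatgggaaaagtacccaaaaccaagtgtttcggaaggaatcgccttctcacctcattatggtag

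Of the first 6 of these, the TNIP1 region lay inside that gene, 2.42 kb before a start of it. The others lay inside ABHD2, 1.89 kb before REPIN1, 5.27 kb before FTH1, 14.7 kb before IFNGR1 and in the promoter of ISG20. The TNIP1 and IFNGR1 regions held a κB match and an AP-1 match, 1 of each. In the ADGRA3 and TBXAS1 regions the capitals are a pair of overlapping κB matches on 11 bases. κB matches are a description of the letters and do not show which of them was occupied.

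The 390 regions had low signal in HT29 mock cells, as had the 514 regions bound in HT29 mock and SW480 ERβ alone. Their mean HT29 mock signal had a median of 2.79 and ran from 1.52 to 8.19, against a median of 6.22 in the regions bound in all 4 groups and of 4.13 in the 345 bound in the 2 HT29 groups alone. In the 514 the median was 3.06. Only 15 of the 390 (3.85%) reached a mean of 5, against 6.03% of the 514 and 67.7% of the regions bound in all 4 groups. These levels chose the regions and are a description.

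The choice leaned on HT29 mock replicate 1. The median signal over the 390 regions was 4.03 in replicate 1, 2.14 in replicate 2 and 2.30 in replicate 3. All 390 passed the limits in replicate 1, 216 in replicate 2 and 273 in replicate 3, and 99 passed in all 3. Calling without replicate 1, so that replicates 2 and 3 both had to pass, left 101 regions.

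HT29 ERβ had to miss the limits at these regions, and its signal is given as a description. The medians were 3.17, 1.45 and 1.49 in replicates 1, 2 and 3, against input medians of 0.440 in HT29 mock and 0.524 in HT29 ERβ. The ratio of the HT29 ERβ mean to the HT29 mock mean had a median of 0.714, with quartiles at 0.633 and 0.803. It was below 0.5 in 11 regions (2.82%) and above 1 in 14. In the regions bound in all 4 groups, which the rule did not choose for a difference, the same ratio had a median of 0.838.

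HT29 ERβ replicate 1 passed every limit at 275 of the 390 regions (70.5%), while replicate 2 passed at 5 and replicate 3 at 2. There were 108 regions (27.7%) at which no HT29 ERβ library passed, and 84 at which no library of any other group passed at the highest bin (83 over every bin of the region). HT29 mock was above HT29 ERβ in all 3 replicate pairs at 258 of the 390, where the share over all 6238 regions was 35.8%. The lowest HT29 mock library was above the highest HT29 ERβ library at 17 of the 390 (4.36%), near the 3.88% of all regions. The rule used this contrast, so nothing is read from these counts.

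**Figure D1:**
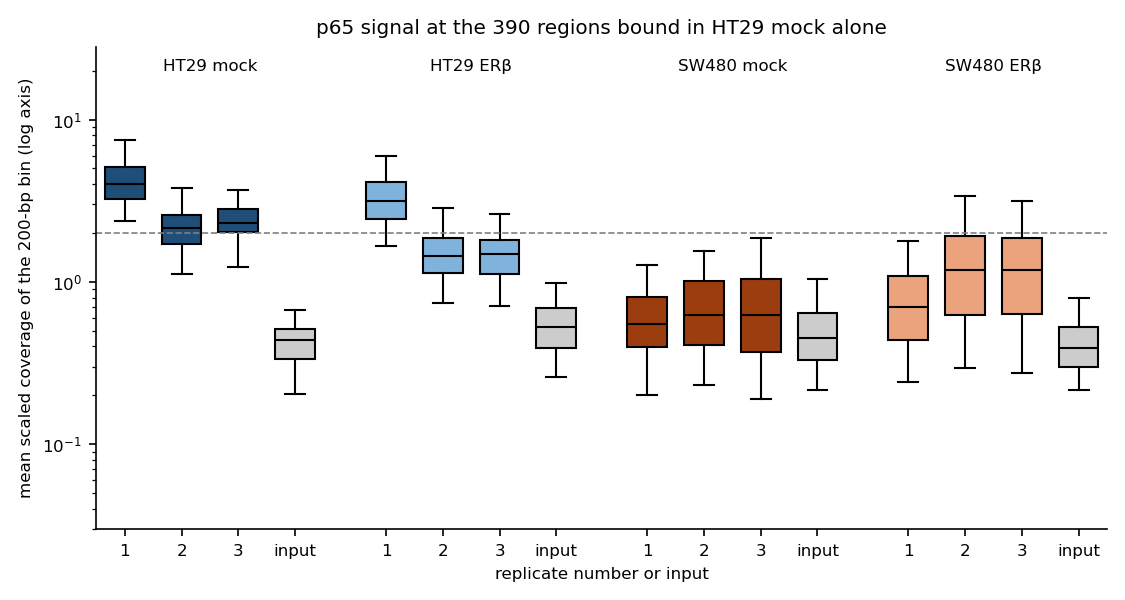
Mean scaled coverage at the 390 regions in each ChIP library and input, on a log axis, where boxes span the quartiles, lines mark the median and whiskers run from the 5th to the 95th percentile. The dashed line is the limit of 2; the median of HT29 ERβ replicate 1 (3.17) lies above those of HT29 mock replicates 2 and 3 (2.14 and 2.30), and all 6 SW480 medians lie below the line.

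A fit over all 6238 regions called none of them different between HT29 mock and HT29 ERβ. With limma and adjustment over all regions, 0 of 6238 (0%) were higher in HT29 mock and 0 (0%) lower at an adjusted p of 0.05, and 0 of the 390 were called. At an unadjusted p of 0.05, 99 of all regions and 44 of the 390 passed. The median difference was 0.36 on the scale of log2(signal + 1) over the 390 and 0.15 over all regions, and the 390 had been picked in part for this difference. Within replicate pairs 1, 2 and 3 the median was 0.28, 0.37 and 0.43 over the 390, and 0.17, 0.11 and 0.18 over all regions. With the libraries paired by replicate number as a block, 147 of the 390 and 668 of all regions passed the unadjusted limma p. The unpaired fit moved with single libraries. Replicate 1 was high in both HT29 groups, so leaving out 1 of its libraries also shifts the unpaired medians. Without HT29 mock replicate 1 the median was 0.14 over the 390 and -0.02 over all regions, and 4 of the 390 and 42 of all regions passed the unadjusted p. Without HT29 ERβ replicate 1 the medians were 0.61 and 0.32, and 204 of the 390 and 721 of all regions passed. Leaving out HT29 mock replicate 2 or 3 gave 91 and 84 of the 390, with 196 and 170 of all regions. Leaving out HT29 ERβ replicate 2 or 3 gave 11 and 7, with 26 and 22 of all regions. A fit of these 6 libraries alone gave 3 of the 390 and 117 of all regions.

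The same difference was then read in libraries that had not chosen the regions. Regions were chosen again by the same limits from 2 replicate numbers of every group, both of which had to pass, and HT29 mock was set against HT29 ERβ in the third pair. With pair 1 left out, 206 regions were chosen, and 171 of them (83.0%) were higher in mock in pair 1, with a median difference of 0.28. With pair 2 left out, 438 of 616 (71.1%) were higher in mock, with a median of 0.19. With pair 3 left out, 397 of 474 (83.8%) were higher in mock, with a median of 0.31. Regions bound in HT29 mock and in another group, chosen from the same libraries, gave 80.2%, 71.8% and 85.5%, with medians of 0.20, 0.19 and 0.31. All regions called from those libraries gave 71.4%, 65.8% and 74.8%, with medians of 0.17, 0.13 and 0.21.

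On the tracks as deposited, the medians were thus close to those of the other HT29 mock regions in pairs 2 and 3 and higher in pair 1. In the 2 pairs that chose them the median was 0.40, 0.39 and 0.37 in turn. HT29 ERβ replicate 1, where left out, passed the limits at 189 of its 206 regions (91.7%). After each track was scaled to the same median over the regions bound in all 4 groups, the shares higher in mock fell to 59.2%, 55.4% and 53.2% and the medians to 0.07, 0.04 and 0.03. Those of the other HT29 mock regions fell further, to 46.9%, 51.7% and 49.5%, but the scaling centres the regions bound in all 4 groups, which are among them, so nothing is read from the gap. The same scaling moved the median difference over all regions from 0.15 to -0.02 for HT29 mock minus HT29 ERβ, from 0.71 to 0.13 for SW480 ERβ minus SW480 mock and from -0.80 to -0.27 for HT29 ERβ minus SW480 ERβ. Each pair is 1 library against 1, so no test was made.

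**Figure D2:**
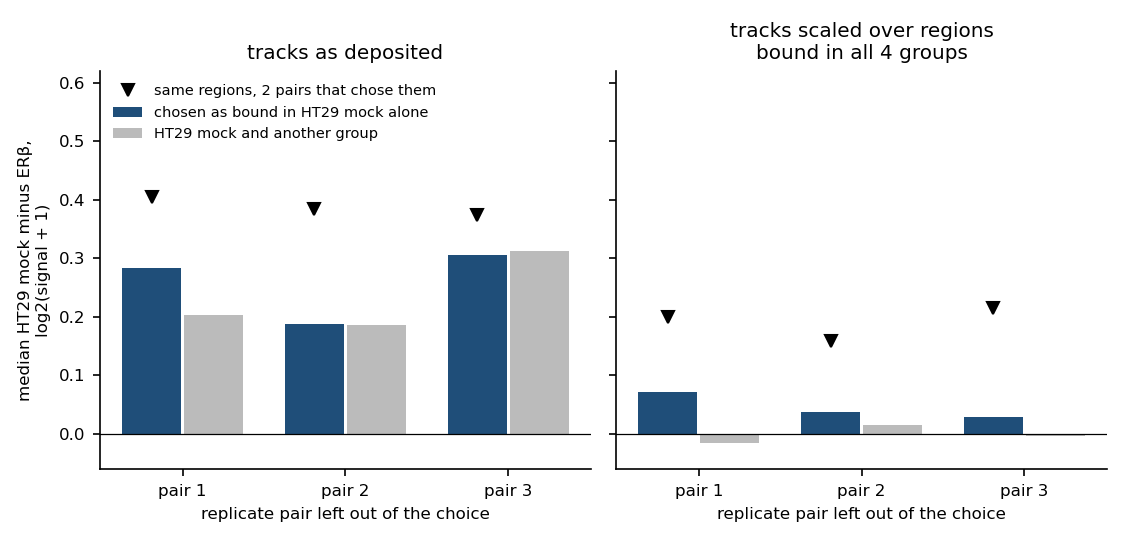
Median difference of HT29 mock minus HT29 ERβ in log2(signal + 1), in the replicate pair left out of the choice, for regions chosen as bound in HT29 mock alone (blue bars) and for other regions bound in HT29 mock (grey bars); triangles mark the blue regions in the 2 pairs that chose them. The left panel uses the tracks as deposited, where blue bars stand at 0.28, 0.19 and 0.31, and the right panel tracks scaled over the regions bound in all 4 groups, where they stand at 0.07, 0.04 and 0.03.

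Which limit kept HT29 ERβ out differed with the height of the region. At 297 of the 390 (76.2%) fewer than 2 HT29 ERβ libraries reached a mean of 2. At the other 93 at least 2 did, and the input limit was missed at 67 of them and the limit on the surroundings at 48, with some missing both. All 12 regions highest in HT29 mock were of this second kind, with 8 missing the input limit and 6 the surroundings limit.

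TNIP1 encodes a partner of A20 that restrains NFκB signalling, and its region, chr5:151083401-151083600, was the highest of the 390. The HT29 mock libraries stood at 11.7, 5.93 and 6.92, the HT29 ERβ libraries at 9.33, 2.79 and 6.15. The SW480 mock libraries stood at 1.97, 1.49 and 1.39 and the SW480 ERβ libraries at 4.39, 4.85 and 4.69. The HT29 groups overlapped, and of the HT29 ERβ libraries only replicate 3 was over 4 times its surroundings. The HT29 ERβ libraries were 23.2, 6.95 and 15.3 times their input. The SW480 ERβ libraries were 12.5, 13.85 and 13.4 times theirs, taken as at least 0.35, but only 2.86, 2.21 and 2.59 times their surroundings. Both ERβ groups thus missed only the limit on the surroundings here. The SW480 groups did not overlap. Every SW480 ERβ library was above every SW480 mock library at 99 of the 390 (25.4%), against 53.5% of all regions.

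The next region lay between genes on chromosome 8, at 307 kb from HAS2, the gene of a hyaluronan synthase. It stood at 11.9, 4.93 and 6.74 in HT29 mock and at 11.6, 4.05 and 4.44 in HT29 ERβ, with inputs of 1.09 and 1.13, and at most 0.590 in any SW480 ChIP library. HT29 ERβ replicates 2 and 3 were less than 4 times their input and so missed that limit. Of the 12 highest regions, 4 were on chromosome 8, where the HT29 mock input over 1 Mb, each input relative to its own genome median, was 3.37 to 3.52 times that of SW480 mock. The part of this in their signal was not tested.

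ABHD2 encodes a hydrolase, and the region in its intron stood at 12.5, 4.56 and 3.61 in HT29 mock and at 8.12, 2.96 and 2.53 in HT29 ERβ. In REPIN1, the gene of a zinc finger protein, the region 1.89 kb before the start stood at 12.8, 3.61 and 4.20 against 11.2, 3.21 and 2.98. In both, replicate 1 was far above the other 2 in each group and the groups overlapped.

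RHBDL2 encodes a rhomboid protease, and its promoter stood at 8.65, 5.04 and 4.54 in HT29 mock and at 5.55, 3.16 and 2.74 in HT29 ERβ. That was 24.7, 14.4 and 13.0 against 6.435, 3.67 and 3.17 times the input, taken as at least 0.35. HT29 ERβ replicates 2 and 3 missed only the input limit there. IFNGR1 encodes the interferon-γ receptor, and the region before it stood at 9.31, 3.84 and 3.73 against 7.32, 2.86 and 2.64. FTH1 encodes the heavy chain of ferritin, and its region stood at 8.07, 5.10 and 4.53 against 7.32, 2.88 and 2.32. At each of these 3, HT29 mock was above HT29 ERβ within all 3 replicate pairs, while the ranges of the groups overlapped through the high replicate 1 of HT29 ERβ. Of the 12 highest regions, the only one at which the ranges did not overlap was the second region nearest to HAS2, 313 kb from its start on chromosome 8. It stood at 7.33, 4.46 and 5.53 in HT29 mock and at 4.39, 3.36 and 3.49 in HT29 ERβ, so the closest libraries were 4.46 and 4.39.

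**Figure D3:**
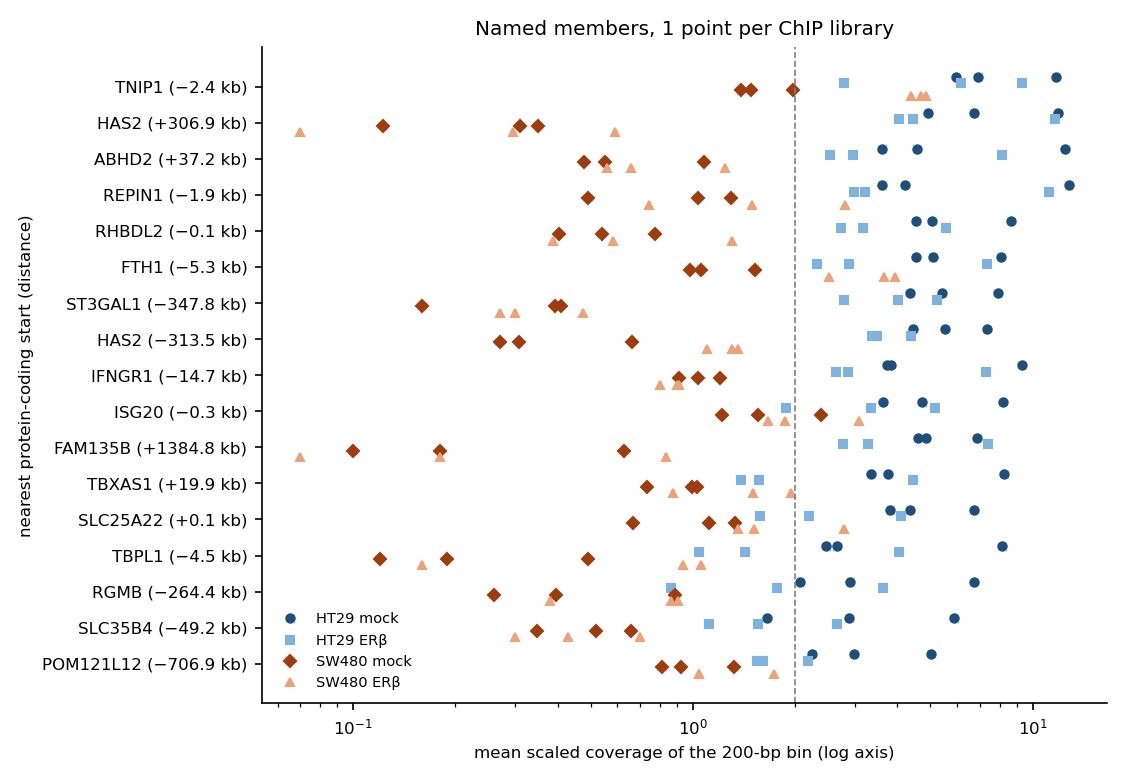
Mean scaled coverage (log axis) of each ChIP library at 11 of the 12 regions highest in HT29 mock and the 6 with the largest gap to the next group, named by the nearest protein-coding start with its distance. The ranges of the dark blue points (HT29 mock) and light blue squares (HT29 ERβ) overlap in all rows but the second HAS2 region (4.46 to 7.33 against 3.36 to 4.39) and POM121L12 (2.25 to 5.02 against 1.54 to 2.19).

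The widest gaps were between HT29 mock and HT29 ERβ, and they were modest. TBXAS1, the gene of thromboxane synthase, had the largest, 0.82 on the log2 scale between HT29 mock and the next group. Its intronic region stood at 8.25, 3.34 and 3.76 in HT29 mock and at 4.45, 1.39 and 1.57 in HT29 ERβ, and the groups overlapped through HT29 ERβ replicate 1. TBPL1, which encodes a relative of the TATA-binding protein, followed with 0.77, and SLC25A22, a mitochondrial glutamate carrier, with 0.72. SLC35B4, RGMB and POM121L12 made up the 6, and at POM121L12 the groups did not overlap, with 5.02, 2.98 and 2.25 against 2.19, 1.54 and 1.61. Of the 390, 69 (17.7%) had a gap of at least 0.5, and at 29 (7.44%) the mean of another group was above that of HT29 mock.

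The furthest of those was KDM6B, which encodes a histone H3K27 demethylase and was picked out after its values were seen. Its region, chr17:7836001-7836200, stood at 4.20, 2.07 and 2.45 in HT29 mock and at 4.14, 8.17 and 5.85 in SW480 ERβ. It was in the set although SW480 ERβ was higher, because at least 2 of the SW480 ERβ libraries, although high enough over their input, missed the limit on the surroundings.

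At the edge of the rule the second-highest HT29 mock library stood at 2.0005, 2.0014 and 2.0064 in the 3 regions just inside. In the 3 bins that missed by least it stood at 1.9985, 1.9969 and 1.9938. Among regions of 1 bin bound in the 2 HT29 groups alone, the second-highest HT29 ERβ library stood at 2.0104, 2.0178 and 2.0207 in the 3 that were kept out of the set by least.

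SW480 cells had little signal at most of these regions. The medians were 0.549, 0.622 and 0.630 in SW480 mock and 0.705, 1.19 and 1.18 in SW480 ERβ, against input medians of 0.450 and 0.392. The HT29 mock mean was 4.44 times the SW480 mock mean at the median region, against 1.23 times in the regions bound in all 4 groups. It was 7.55 times in those bound in the 2 HT29 groups alone and 1.75 times in those bound in HT29 mock and SW480 ERβ alone. The rule asked for HT29 mock to pass and for both SW480 groups to miss the limits, so this contrast is a description. No SW480 library passed the limits at 308 of the 390. Averaged over the regions, both SW480 groups still formed a low summit at the place of the HT29 summit. From 575 bp before the middle of the bin to 25 bp before it, SW480 ERβ rose from 0.529 to 1.27 and SW480 mock from 0.477 to 0.733.

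**Figure D4:**
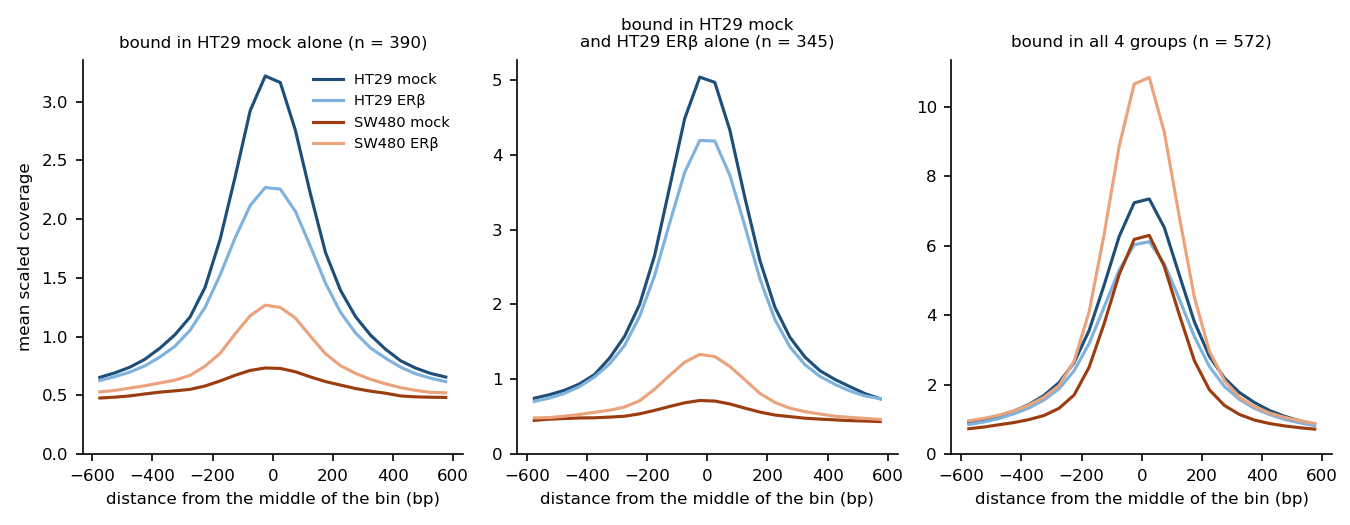
Mean scaled coverage per group against distance from the middle of the bin, in steps of 50 bp, for the 390 regions bound in HT29 mock alone, the 345 bound in the 2 HT29 groups alone and the 572 bound in all 4 groups; each panel has its own vertical axis, which starts at 0. In the left panel HT29 ERβ keeps the shape of HT29 mock at a lower height, and SW480 ERβ lies above SW480 mock.

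The rule used the SW480 libraries too, since a member had to miss the limits in both SW480 groups, while 3230 of the 6238 regions were bound in SW480 ERβ alone. The calls between the SW480 groups are given as a description, and nothing is read from their shares. In SW480 ERβ, 41 of the 390 (10.5%) were called higher than in SW480 mock by limma, against 47.7% of all 6238 regions, and 0 of the 390 were called lower, against 0% of all regions. At an unadjusted p of 0.05, 60 of the 390 and 3589 of all regions passed. The median difference was 0.28 over the 390 and 0.71 over all regions on the log2 scale. With each library paired by replicate number as a block, 120 of the 390 (30.8%) were higher and 1 lower, against 77.2% of all regions higher. After scaling over the regions bound in all 4 groups, 2 were higher and 4 lower (1.03%), against 13.2% and 1.17% of all regions, and the median over the 390 turned to -0.08. Leaving out SW480 mock replicate 1, 2 or 3 left 10, 18 and 23 of the 390 called higher, against 27.6%, 33.9% and 40.2% of all regions. Leaving out SW480 ERβ replicate 1, 2 or 3 left 88, 7 and 9, against 71.4%, 25.4% and 27.5%.

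Among the named regions, the fitted difference of SW480 ERβ minus SW480 mock on the log2 scale was 1.11 (SE 0.38) at TNIP1, 0.99 (SE 0.37) at FTH1 and 0.83 (SE 0.34) at MAFK. After scaling these were 0.51, 0.44 and 0.32, and none of them was called (limma adjusted p of 0.10, 0.13 and 0.35). Of the regions named by rank or by a listed gene, only these were called before scaling. Each lost its call when certain single libraries were left out. The difference was -0.13 at IFNGR1, -0.07 at FOXJ3 and -0.04 at SLC35B4, and positive at the rest. The FTH1 region stood at 0.981, 1.52 and 1.06 in SW480 mock and at 2.52, 3.94 and 3.66 in SW480 ERβ, with no overlap. MAFK encodes a small Maf protein that pairs with other leucine-zipper factors. Its region, 398 bp after a start, stood at 0.783, 1.42 and 0.802 against 1.70, 2.68 and 3.39, again with no overlap.

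The ERβ groups of the 2 lines had likewise both to miss the limits, and the members were picked for high signal in HT29 mock cells, which are of the same line as HT29 ERβ. This contrast is also a description, and it shares its SW480 ERβ libraries with the one above. HT29 ERβ was called higher than SW480 ERβ at 165 of the 390 (42.3%), against 8.61% of all regions, and lower at 2 (0.513%), against 55.1% of all regions. The median difference was 0.52 over the 390 and -0.80 over all regions. Without HT29 ERβ replicate 1 the count was 97 higher and 5 lower, against 6.17% and 64.3% of all regions. After scaling it was 316 higher (81.0%), against 20.8% of all regions.

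At the region 307 kb from HAS2 the fitted difference of HT29 ERβ minus SW480 ERβ was 2.43 (SE 0.34), on the part of chromosome 8 with the raised HT29 input. Off chromosome 8 it was 1.42 (SE 0.30) at FOXJ3, the gene of a forkhead factor, and 1.39 (SE 0.34) at IFNGR1. At TNIP1 it was 0.21 (SE 0.38), and -0.12 without HT29 ERβ replicate 1. At EGFR, the gene of the epidermal growth factor receptor, it was 0.38 (SE 0.36). After scaling it was 0.84 at TNIP1 and 0.95 at EGFR.

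The regions lay mostly away from gene starts. Promoters, from 1 kb before to 100 bp after a start of any transcript, held 70 of the 390 (17.9%, exact 95% interval 14.3 to 22.1%), against 29.4% of all regions, 40.7% of those bound in all 4 groups and 16.5% of those bound in the 2 HT29 groups alone. Where all 3 libraries of a group had to pass, 376 regions were chosen and 27.9% of them were promoters. Introns held 188, exons 23, and 109 lay between genes. The median distance to a protein-coding start was 19.8 kb, against 12.1 kb over all regions and 4.04 kb in those bound in all 4 groups. The median GC content of the bin was 52.0%, against 55.5% over all regions.

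Promoter members were not the strongest. The 70 had a median HT29 mock mean of 2.70 and the other 320 one of 2.82, while in SW480 ERβ the medians were 1.58 and 0.962. The highest promoters of protein-coding genes after RHBDL2 were ISG20, an interferon-induced exonuclease, and SLC25A22, followed by ADGRA3, an adhesion receptor, TET3, an enzyme that oxidises methylcytosine, FOXJ3, FFAR4, a receptor for long-chain fatty acids, and NEDD4L, a ubiquitin ligase. At ISG20 the libraries stood at 8.19, 3.62 and 4.73 in HT29 mock and at 5.18, 3.34 and 1.88 in HT29 ERβ. At TET3 they stood at 5.92, 4.17 and 3.40 against 4.68, 1.02 and 1.70. At SLC25A22 they stood at 6.72, 3.80 and 4.36 against 4.10, 1.57 and 2.19. HT29 ERβ replicate 1 was within the range of the mock libraries at each of the 3.

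κB matches were common in the regions. The κB consensus was found in the highest bin of 207 of the 390 (53.1%, exact 95% interval 48.0 to 58.1%), against 2.91% of all 200-bp bins of the genome and 56.7% of all regions. The share was 64.6% (59.3 to 69.7%) in regions bound in the 2 HT29 groups alone and 74.8% (71.1 to 78.3%) in those bound in all 4 groups. It was 63.6% in those bound in HT29 mock and SW480 ERβ alone and 49.7% in those bound in SW480 ERβ alone. Within the 390 it was 46.9% of the 128 regions with an HT29 mock mean below 2.5, 55.5% of the 173 from 2.5 to 3.5, 51.4% of the 74 from 3.5 to 5, and 86.7% (13 of 15; 59.5 to 98.3%) of those at 5 or above. In the same 4 ranges the share was 37.5% (of 8 regions), 55.1%, 64.1% and 75.5% in the regions bound in the 2 HT29 groups alone, and 44.4% (of 9 regions), 66.7%, 77.6% and 75.5% in those bound in all 4 groups.

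The matches sat close to the summit. The middle of a κB match lay within 50 bp of the summit in 197 of the 390 (50.5%), against 77.1% of the regions bound in all 4 groups. The most frequent form was GGGAATTTCC, in 24 of the 207 regions with a match, followed by GGGAAATTCC in 19. In the regions bound in all 4 groups GGGACTTTCC led, in 55 of 428. A second κB match was found in 57 of the 390 (14.6%), against 17.0% of all regions.

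AP-1 is a dimer of Fos and Jun proteins that shares many enhancers with NFκB. Its consensus was found in 36 of the 390 (9.23%, 6.55 to 12.6%), against 17.0% of the regions bound in all 4 groups and 2.99% of genome bins. κB and AP-1 matches occurred together in 15 (3.85%), against 12.1% of the regions bound in all 4 groups and 5.32% of all regions. In the 2 HT29 groups alone the share with both was 4.64%, and in HT29 mock and SW480 ERβ alone 3.70%. Neither κB nor AP-1 was found in 162 of the 390 (41.5%), against 36.5% of all regions. That share was 28.1% in the 2 HT29 groups alone and 42.4% in regions bound in SW480 ERβ alone.

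GGGCGG, the core of SP/KLF sites of GC-rich promoters, was in 12.6% of the 390 (9.44 to 16.3%), 6.96% of those bound in the 2 HT29 groups alone, 32.0% of those bound in all 4 groups and 38.1% of those bound in HT29 mock and SW480 ERβ alone. TGGAAAA, an NFAT core whose letters can overlap a κB match, was in 12.6%, against 13.0% in the 2 HT29 groups alone, 5.07% in all 4 groups and 7.87% of genome bins. TGTTTAC, a forkhead core of FOXA factors, was in 8.46%, against 8.99% in the 2 HT29 groups alone, 3.31% of those bound in HT29 mock and SW480 ERβ alone and 3.09% of genome bins. TGTGGTC or TGTGGTT, the RUNX core, was in 3.08% (1.60 to 5.31%), against 11.3% of all regions and 6.18% of genome bins. The RUNX share was 5.51% in the 2 HT29 groups alone and 4.67% in HT29 mock and SW480 ERβ alone. In regions bound in SW480 ERβ alone it was 14.9%. In the SP/KLF, NFAT and FOXA cores the shares were nearer to those of the 2 HT29 groups alone than to those of HT29 mock and SW480 ERβ alone. For κB, AP-1 and RUNX the shares were nearer to those of HT29 mock and SW480 ERβ alone, at 63.6%, 8.17% and 4.67%. The 2 HT29 groups alone had 64.6%, 11.9% and 5.51% for these.

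CCGGAAG of ETS factors was in 2.82%, against 3.93% of all regions and 0.462% of genome bins. GGAATGC or GGAATGT of TEAD factors was in 8.97%, against 10.97% and 5.51%, and CCAAT of NFY in 20.8%, against 19.1% and 27.2%. The HNF4 consensus was in 1 region and the CTCF consensus in 2. The estrogen response element was in 0 of the 390 (exact 95% interval up to 0.941%) and in 2 of all 6238 regions, and this says only that these letters were not in the bins.

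**Figure D5:**
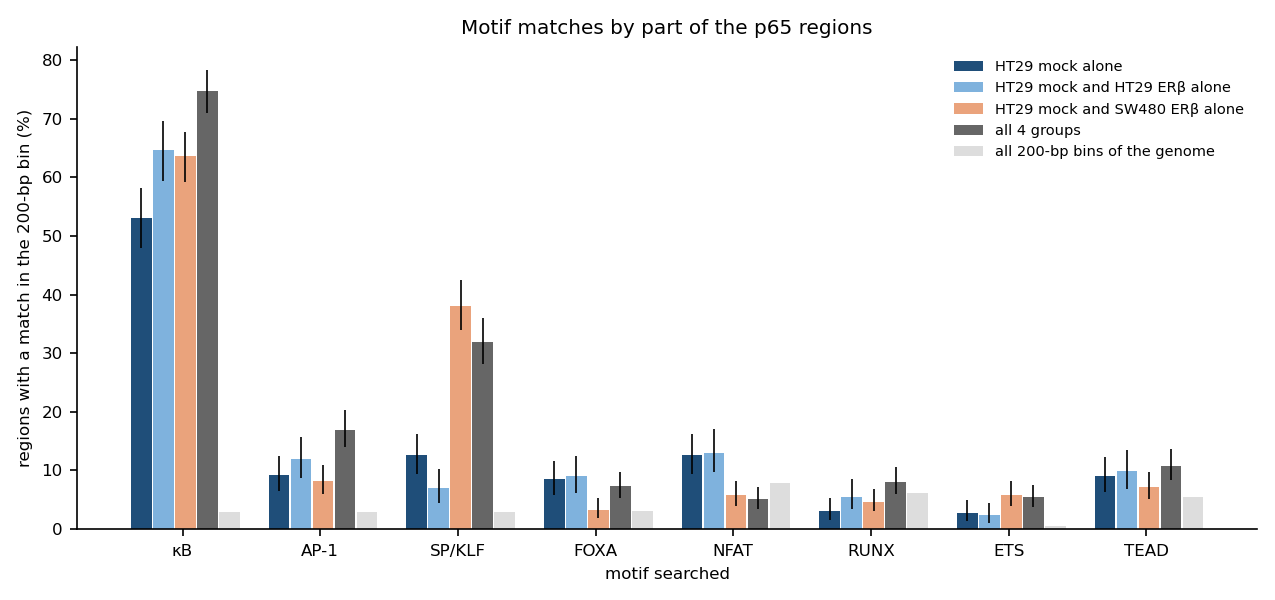
Share of regions with an exact match in the 200-bp bin, on either strand, for 8 motifs; bars are 4 parts of the p65 regions and all 200-bp bins of the genome, and error bars are exact 95% binomial intervals, which cover counting error only. The κB bar of the regions bound in HT29 mock alone (53.1%) is below that of the regions bound in all 4 groups (74.8%) and far above that of the genome (2.91%).

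Some regions lay near genes of the NFκB response and of processes it is known for, read from 50 kb before to 2 kb after a start. Of all 19618 protein-coding genes 337 (1.72%) had 1 of the 390 in that range, and 2600 (13.3%) had some region bound in HT29 mock. Of 24 genes of NFκB subunits and feedback inhibitors 22 had a region bound in HT29 mock, and 2, TNIP1 and NFKBID, had 1 of the 390. Of 31 chemokine and cytokine genes 16 had a region bound in HT29 mock and 0 had 1 of the 390. The intestinal transcription factor genes likewise had 0 of 30, with 5 that had another region bound in HT29 mock.

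NFKBID encodes a nuclear IκB protein, and its promoter stood at 5.14, 1.96 and 2.75 in HT29 mock. HT29 ERβ stood at 4.41, 2.41 and 2.71, so the groups were mixed and the gap to the next group was 0.04 on the log2 scale. SW480 ERβ stood at 1.35, 2.19 and 4.34.

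Among 31 genes of AP-1 and other early response factors, 3 had 1 of the 390, FOSB, MAFK and MAFF. FOSB encodes a Fos subunit of AP-1, and its region stood at 3.84, 1.94 and 3.23 in HT29 mock and at 1.64, 3.43 and 2.65 in SW480 ERβ. MAFF encodes another small Maf protein, and the region lay 21.6 kb before it, inside PLA2G6 and 104 bp after a start of PLA2G6. It stood at 4.21, 2.35 and 2.05 in HT29 mock and at 2.80, 1.83 and 1.52 in HT29 ERβ. In both, the HT29 mock libraries overlapped those of the other group named.

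Of 36 genes of EGFR, Wnt and TGF-β signalling, EGFR and its ligand gene TGFA had 1 each. The EGFR region, chr7:55079001-55079200, lay in an intron of EGFR, 30.6 kb before the nearest of its annotated starts. It stood at 7.99, 3.90 and 3.28 in HT29 mock and at 4.83, 2.96 and 2.65 in HT29 ERβ. At TGFA the libraries stood at 3.29, 1.53 and 2.26 against 2.74, 1.38 and 1.47.

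Of 25 circadian clock genes only BMAL2, a partner of CLOCK, had 1 of the 390, while 13 had a region bound in HT29 mock. It lay 1.54 kb before the start and stood at 7.30, 3.20 and 3.43 in HT29 mock, 5.01, 2.88 and 2.62 in HT29 ERβ and 1.64, 3.61 and 3.35 in SW480 ERβ. Of 39 genes of cell adhesion and migration 3 had 1 of the 390. Among them LAMA3, a laminin chain, stood at 4.22, 2.11 and 1.56 in HT29 mock and at 3.12, 1.10 and 0.884 in HT29 ERβ. Another lay 37.2 kb before BCAR1, an adaptor of focal adhesions, in an exon of CFDP1.

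Of 30 genes of cell death and survival TNFAIP8, a TNFα-induced survival gene, had 1 of the 390. Its region stood at 3.13, 1.36 and 2.69 in HT29 mock and at 1.26, 1.76 and 1.66 in HT29 ERβ, where replicate 1 was the lowest. It held no κB match and 1 AP-1 match.

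The regions were spread over 22 of the 23 chromosomes analysed. Chromosome 1 held 49, chromosome 2 held 37 and chromosome 7 held 31, and chromosome 21 held 0 of its 24 regions bound in HT29 mock. The HT29 mock input over 1 Mb, relative to that of SW480 mock, had a median of 0.985, against 0.892 over all regions, and it was above 1.5 at 15 of the 390. Another region bound in HT29 mock lay within 50 kb of 104 of the 390 (26.7%), against 21.4% of all regions, 69 of the 345 bound in the 2 HT29 groups alone and 26.0% of those bound in all 4 groups.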

How the data were processed

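Cells of 4 groups were analysed by p65 ChIP-Seq, with 12 ChIP and 4 input libraries. Per the paper's methods and the submitters' processing notes, unique reads were aligned to hg38 (GRCh38) with STAR and handled with HOMER, whose versions are not given in the sources used here. The authors deposited 1 coverage track per library, in which the signal is tag density scaled to 10000000 tags (as read from the sums) with fragments of 100 bp, and no stretch under 0.05 is listed. These values are not counts, so the edgeR test of the study was not run, and depth entered no test here. The labels name the antibody on the input samples too, and these were read as inputs.

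The members, the gene lists and the motifs were chosen with earlier results of these data known. Means were taken over 200-bp bins, and the surrounding 10 kb was read as 25 bins on each side without the bin itself. log2(signal + 1) of the highest bin of all 6238 regions was fitted with limma 3.58.1 (R 4.3.3), with 4 group means, a variance trend and Benjamini-Hochberg adjustment. The libraries are called biological replicates. Within lines, same-numbered libraries deviated together (correlations of 0.585, 0.234 and 0.278 in HT29 and of 0.309, 0.134 and 0.233 in SW480), so the number was taken to pair them and its block was fitted as an alternative. Different-numbered libraries had -0.43 to 0.27 in HT29, where replicates 2 and 3 were not told apart by number, and -0.23 to 0.02 in SW480. The labels do not say what was shared. Between lines the correlations of same-numbered libraries were -0.08 to 0.03.

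Genes came from GENCODE release 44 and sequences from GRCh38, read with pysam 0.24.0, and none was shown from chromosome 8 or overlapping an annotated exon. The 12 motifs were searched as exact matches on both strands, overlaps included. The calling and the fit were checked on made-up data first. The regions named were the 12 highest in HT29 mock, the 8 highest promoters of protein-coding genes, the 6 with the largest gap to the next group, those near listed genes and those at the edge of the limits. Exact binomial intervals used scipy 1.17.1, under Python 3.11.15 with numpy 2.4.6, pandas 2.3.3 and numba 0.67.0. Alternatives covered each limit, the scaling, the pseudocount, the grid, the motif window, the promoter width and each library left out. Expression data and the peak lists of the study were not analysed here. A listed gene and a named region are not reported here.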

Additional observations from a re-analysis of the deposited data

Results flagged for a closer look

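Signal over ESR2 exons stood out outside the comparisons. The ratio of exon bins to the other bins of the gene was at least 1.55 in the 3 HT29 ERβ ChIP libraries, above the 0.967 to 1.08 of HT29 mock. In SW480 it was at least 1.475 in the ERβ libraries, above the 1.16 to 1.28 of SW480 mock. The inputs did not separate the SW480 groups, with 1.28 in SW480 ERβ and 1.24 in SW480 mock, and had 1.27 and 1.07 in HT29 ERβ and HT29 mock.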

How the results depend on the processing

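The number of regions was 390 and stayed within 1.5 times of that under the other alternatives run, but was 225 with a mean signal of 3 and 83 where no library of any other group may pass at any bin of the region. Leaving out libraries or replicate numbers gave 101 to 629, with 101 without HT29 mock replicate 1, 219 without HT29 mock replicate 3, 629 and 624 without SW480 ERβ replicate 2 or 3, and 206 and 616 without number 1 or 2 in all groups. Scaling over the regions bound in all 4 groups gave 495. The share with a κB match was 65.1% with 100 bp more on each side, 32.6% in the middle 100 bp, and 53.0% to 57.4% without an HT29 mock library. The promoter share was 27.9% with 3 of 3 libraries, 23.0% after scaling, 12.6% with protein-coding transcripts alone, 32.6% within 2 kb of a start and 18.6% to 21.8% without an HT29 mock library. In the pairs left out of the choice, the share higher in mock was 59.2%, 55.4% and 53.2% after scaling. On the tracks as deposited, 25.7%, 20.5% and 25.1% were higher by at least 0.5 on the log2 scale. That compares with 14.1%, 13.85% and 18.6% of all regions called from the same libraries. Among other regions bound in HT29 mock it was 13.2%, 16.5% and 24.4%, so pair 3 was near these. Of the 390, those higher in SW480 ERβ than in SW480 mock were 78 in a fit of those 6 libraries alone (against 53.2% of all regions), 120 with the replicate block, 2 after scaling (with 4 lower, 1.03% against 1.17% of all regions), and 7 to 88 with a library left out. Those higher in HT29 ERβ than in SW480 ERβ were 316 after scaling (against 20.8% of all regions), 164 with the block (against 8.42%) and 97 to 179 with a library left out (against 6.17% to 9.28%). At TNIP1 the difference of HT29 ERβ minus SW480 ERβ turned to -0.115 without HT29 ERβ replicate 1 and was at most 0.608 with a library left out. HT29 mock against HT29 ERβ gave 0 limma calls under every alternative run, the block included, and at an unadjusted p of 0.05 the block gave 147 of the 390 and 668 of all regions. The causes were not tested. The tracks hold no counts, so no limit from depth was computed here.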
